A study of Mus musculus with 6 samples.

Results

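The miR-30 family is represented by 5 mouse assays, miR-30a, miR-30b, miR-30c, miR-30d and miR-30e, among the 596 mouse miRNA assays of TaqMan microRNA cards run on RNA of whole aortas. The members were taken by name, and star strands were left out. EC-Dicerflox mice carried VE-Cadherin-CreERT2, Dicer1flox/flox and Apoe-/-. Their EC-DicerWT littermates carried the same Cre and Apoe-/- with Dicer1WT/WT. Both groups received tamoxifen (2 mg per 20 g body weight) on 5 days, were 6 to 8 weeks old when the high-fat diet (HFD, 21% fat and 0.15% cholesterol) began, and were fed it for 4 weeks. There were 3 samples per group, and the labels call them biological replicates. The VE-cadherin promoter drives Cre in endothelial cells (ECs), so that the deletion is directed at these cells among those of the aorta. Dicer1 mRNA is not on these cards, so the deletion could not be checked from these values.

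Members of a miRNA family share the seed, the bases near the 5′ end that pair with target mRNAs, and can therefore bind overlapping sets of targets. Dicer cuts the hairpin precursor into a duplex, of which one strand, the guide, is loaded into Argonaute and the other, the star strand, is mostly degraded. The miR-30 family is broadly expressed, and is known for regulating autophagy, connective tissue growth factor in heart muscle and the Notch ligand DLL4 in ECs. Its genes lie in pairs at 3 loci, Mir30a with Mir30c-2, Mir30b with Mir30d, and Mir30c-1 with Mir30e. In the RefSeq annotation of GRCm38.p6, no other gene lies between the genes of any pair. Nfyc, which encodes a subunit of the transcription factor NF-Y, spans both Mir30c-1 and Mir30e, and no annotated gene spans the other pairs.

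A mature sequence was matched in RefSeq (GRCm38.p6) for 3 of the 5 members. They are shown with miR-384-5p, to mark where the sequences are alike and where they differ. Among the 406 assays with a RefSeq mature miRNA of the same name, it was the 1 assay besides these members found with this seed. Bases 2 to 8, the seed, are in capitals.
miR-30a: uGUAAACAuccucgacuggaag
miR-30c: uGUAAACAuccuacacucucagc
miR-30e: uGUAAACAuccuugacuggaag
miR-384-5p: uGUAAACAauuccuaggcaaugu
MiR-30b and miR-30d belong to the same family. Counted from 1 at the 5′ end, miR-30a and miR-30e have 22 bases each and differ by C13U. MiR-30a and miR-30c are identical over the first 12 bases and differ at 5 of 22 positions. MiR-384-5p shares the first 8 bases with miR-30a and differs at 10 of 22. How much of the signal of one assay comes from a near-identical member was not tested.

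The same miR-30c is cut from the hairpins of 2 loci, which are printed because a single assay therefore reads both. Mir30c-2 lies at chr1:23291701-23291784 on the plus strand and Mir30c-1 at chr4:120769534-120769622 on the minus strand (GRCm38.p6). The mature miR-30c is in capitals.
Mir30c-2: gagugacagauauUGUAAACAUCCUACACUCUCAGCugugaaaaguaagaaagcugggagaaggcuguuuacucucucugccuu
Mir30c-1: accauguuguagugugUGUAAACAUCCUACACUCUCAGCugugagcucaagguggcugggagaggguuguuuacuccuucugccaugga
Mir30a lies at chr1:23272269-23272339 and Mir30e at chr4:120772606-120772697, on the strands of their neighbours. The value of miR-30c enters both the a/c-2 and the c-1/e locus in what follows.

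All 5 members were detected in every sample and gave early signals. Values are cycle thresholds (CT), the PCR cycle at which fluorescence crosses a threshold. Abundant RNAs cross it early, so that a low CT stands for much RNA and each further cycle, at full amplification, for a factor of 2 less. A well with no signal has the value 40. MiR-30c had a CT of 17.1, 16.6 and 18.0 in EC-Dicerflox replicates 1, 2 and 3, and of 17.1, 17.1 and 18.2 in EC-DicerWT replicates 1, 2 and 3. MiR-30b followed with 17.9, 17.2 and 18.7 against 17.6, 17.9 and 18.8. In both assays replicate 3 was the latest sample of its group and EC-Dicerflox replicate 2 the earliest of all.

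MiR-30a had a CT of 19.0, 18.5 and 20.1 in EC-Dicerflox and 18.9, 19.0 and 20.2 in EC-DicerWT mice. MiR-30e had a CT of 20.6, 20.1 and 22.1 against 20.6, 20.7 and 22.0. MiR-30d was the latest, with 21.1, 20.7 and 22.8 against 21.0, 21.5 and 22.6. In each of these members the 2 samples numbered 3 were later than the other 4. The latest of all was EC-DicerWT replicate 3 for miR-30a and EC-Dicerflox replicate 3 for miR-30e and miR-30d. By mean CT, miR-30c, miR-30b, miR-30a, miR-30e and miR-30d stood at places 7, 9, 19, 34 and 51 of the 596 assays.

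This order held in 6 of 6 samples. From miR-30c to miR-30b the gap was 0.69 ± 0.085 cycles (SD, n = 6), from miR-30b to miR-30a 1.22 ± 0.13, from miR-30a to miR-30e 1.73 ± 0.14 and from miR-30e to miR-30d 0.63 ± 0.15. Every gap between neighbours was larger than its spread over the samples. It is an order of CT values, and the amplification efficiency of each assay, which shifts its CT, was not measured here.

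**Figure D1:**
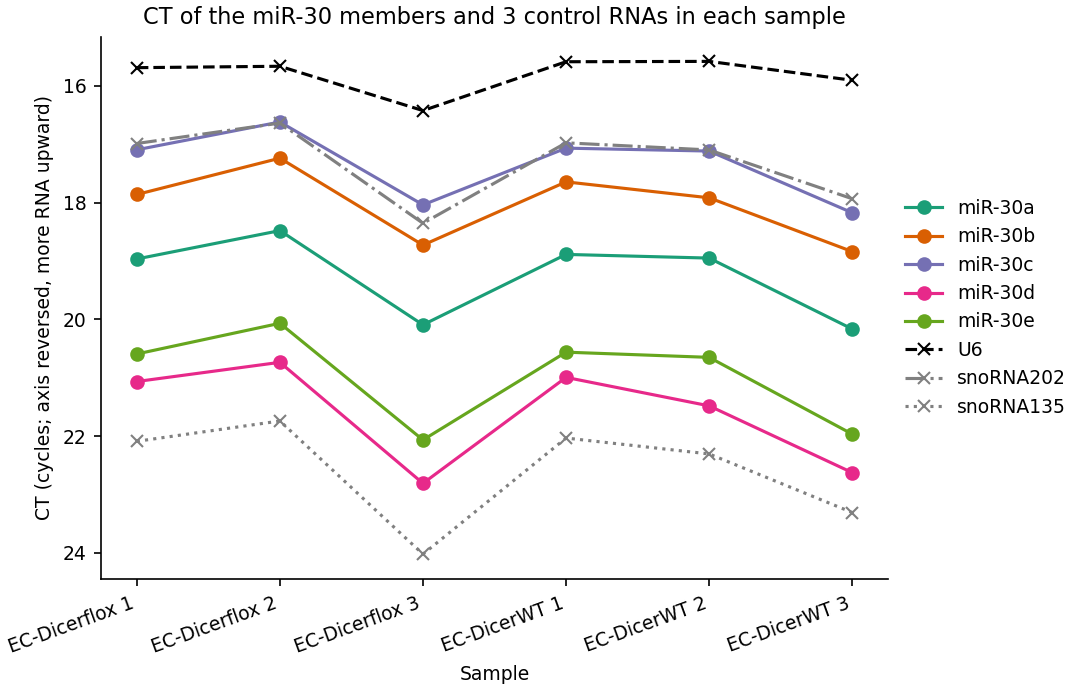
CT in cycles (reversed axis, so that more RNA is higher) of the 5 miR-30 members (circles) and of U6, snoRNA202 and snoRNA135 (crosses, mean of the wells of both cards) in each of the 6 samples, with lines joining the values of 1 RNA. The members keep the order miR-30c, miR-30b, miR-30a, miR-30e, miR-30d in every sample and are latest in replicate 3 of both groups. U6 drops less than the members in these samples.

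The later signals of the samples numbered 3 were also seen across the cards. The median CT over the 350 miRNAs detected in all samples was 28.2 in EC-Dicerflox replicate 3, 27.5 in EC-DicerWT replicate 3 and 26.4 to 26.8 in the other 4 samples. From 375 to 415 miRNAs had a CT under 40 per sample, fewest in EC-Dicerflox replicate 3. Over all 6 samples the mean CT of the 5 members ranged over 1.73 cycles, snoRNA202 over 1.72, snoRNA135 over 2.28 and U6, the small nuclear RNA of the spliceosome, over 0.84. The choice of the control RNA therefore touches every comparison of the family between samples.

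To compare the genotypes, the level of each miRNA was set against the control RNAs U6 and snoRNA135, averaged within each sample. On this minus delta CT scale (log2) the level of miR-30c was 1.79, 2.08 and 2.18 in EC-Dicerflox replicates 1 to 3, and 1.74, 1.83 and 1.43 in EC-DicerWT replicates 1 to 3. Of the EC-Dicerflox samples, 2 lay above all EC-DicerWT samples, and replicate 1 lay among them. MiR-30b was at 1.03, 1.46 and 1.5 against 1.17, 1.03 and 0.77, and miR-30a at -0.077, 0.22 and 0.13 against -0.077, -0.0072 and -0.56. In both, replicates 2 and 3 of the EC-Dicerflox group were above all 3 EC-DicerWT samples, and the groups overlapped through replicate 1.

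MiR-30e was at -1.70, -1.36 and -1.84 in EC-Dicerflox and at -1.75, -1.71 and -2.36 in EC-DicerWT mice. MiR-30d was at -2.18, -2.03 and -2.59 against -2.18, -2.54 and -3.02. In these later members, EC-Dicerflox replicate 3 lay below replicates 1 and 2, whereas in miR-30a, miR-30b and miR-30c it lay above replicate 1. EC-DicerWT replicate 3 was the lowest of the 6 samples for all 5 members, and the groups overlapped for each of them.

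**Figure D2:**
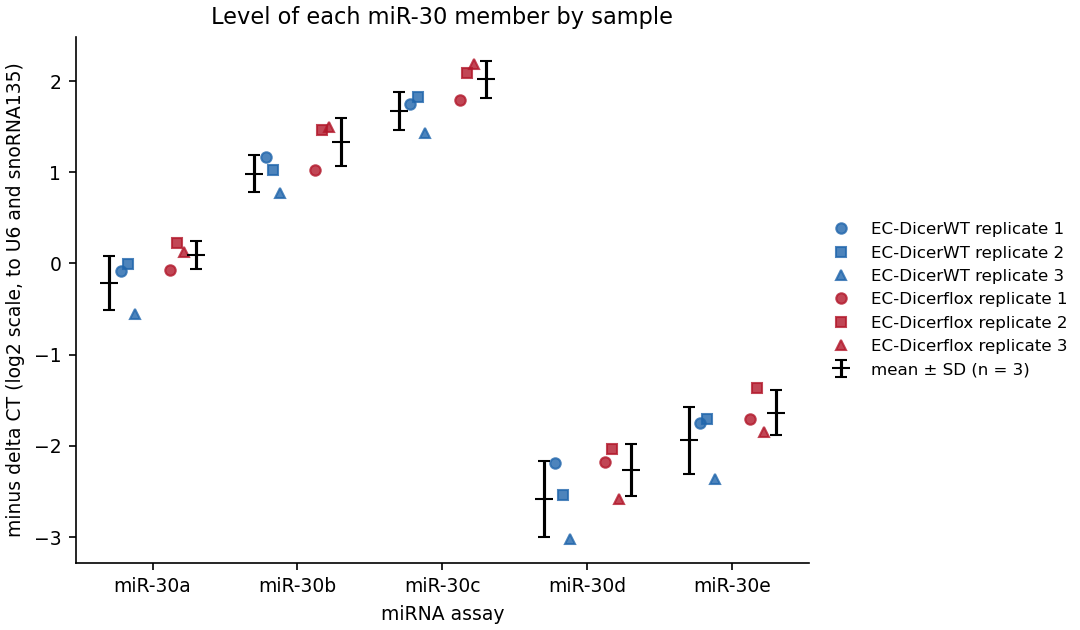
Minus delta CT (log2 scale, relative to the mean of U6 and snoRNA135) of the 5 members in the 3 EC-DicerWT (blue) and 3 EC-Dicerflox (red) samples, with the replicate number as marker shape and bars for the mean ± SD (n = 3). For each member the groups overlap, and EC-DicerWT replicate 3 is the lowest sample.

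No member differed between the genotypes by the test across all miRNAs. The log2 fold change of EC-Dicerflox over EC-DicerWT mice was 0.31 ± 0.27 (SE, n = 3 and 3) for miR-30a, 0.34 ± 0.27 for miR-30b, 0.35 ± 0.26 for miR-30c, 0.32 ± 0.33 for miR-30d and 0.30 ± 0.31 for miR-30e. As linear folds these are 1.23 to 1.28. The unadjusted p-values of limma ranged from 0.226 for miR-30c to 0.384 for miR-30d, and the adjusted p-value over the 461 miRNAs tested was 0.923 for all 5. The 95% intervals reached from -0.30 to 1.01 for miR-30c, the narrowest, and from -0.52 to 1.15 for miR-30d, the widest. As folds they reached from 0.813 to 2.01 for miR-30c and from 0.696 to 2.23 for miR-30d, and both include no difference. An exact two-sided permutation test of the 6 samples gave p = 0.2 for miR-30a, miR-30b and miR-30c and p = 0.4 for miR-30d and miR-30e, where 0.1 is the smallest p that 20 arrangements allow.

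Of the 5 members, 0 had an unadjusted p-value of limma under 0.05, against 3.04% of the 461 miRNAs tested (14 miRNAs, of which 9 were lower and 5 higher). After Benjamini-Hochberg adjustment limma called 0 of 461 miRNAs (0%), and the smallest adjusted p-value was 0.508. An ordinary linear model without moderation also called 0 after adjustment and 24 at an unadjusted p under 0.05. The groups did not overlap for 10.4% of the miRNAs and for 0 of the 5 members. All 5 estimates lay above 0, as did 54.4% of all 461. The median of the members was 0.32 and that of all miRNAs tested 0.08.

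The estimates of the members kept their sign under every reference and in every fit without 1 sample, and their size moved with both. The median log2 fold change of the members was 0.15 relative to snoRNA202, 0.23 relative to snoRNA135, 0.33 relative to the median of all miRNAs and 0.40 relative to U6. Relative to snoRNA202, the median of the 350 miRNAs detected in all samples was -0.06, and relative to U6 it was 0.19. Without EC-DicerWT replicate 3 the values fell to 0.13 for miR-30a, 0.24 for miR-30c, 0.10 for miR-30d and 0.09 for miR-30e. Without EC-Dicerflox replicate 2, miR-30d was at 0.20 and miR-30e at 0.17. The estimate of miR-30d was 0.51 without EC-DicerWT replicate 1 and 0.48 without EC-Dicerflox replicate 3. Without EC-DicerWT replicate 2, the median of the members was 0.41. With both samples numbered 3 left out, which was added after the values were seen, the estimates were 0.12 for miR-30a, 0.15 for miR-30b, 0.15 for miR-30c, 0.26 for miR-30d and 0.20 for miR-30e. In all of these fits 0 members had an unadjusted p-value of limma under 0.05.

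**Figure D3:**
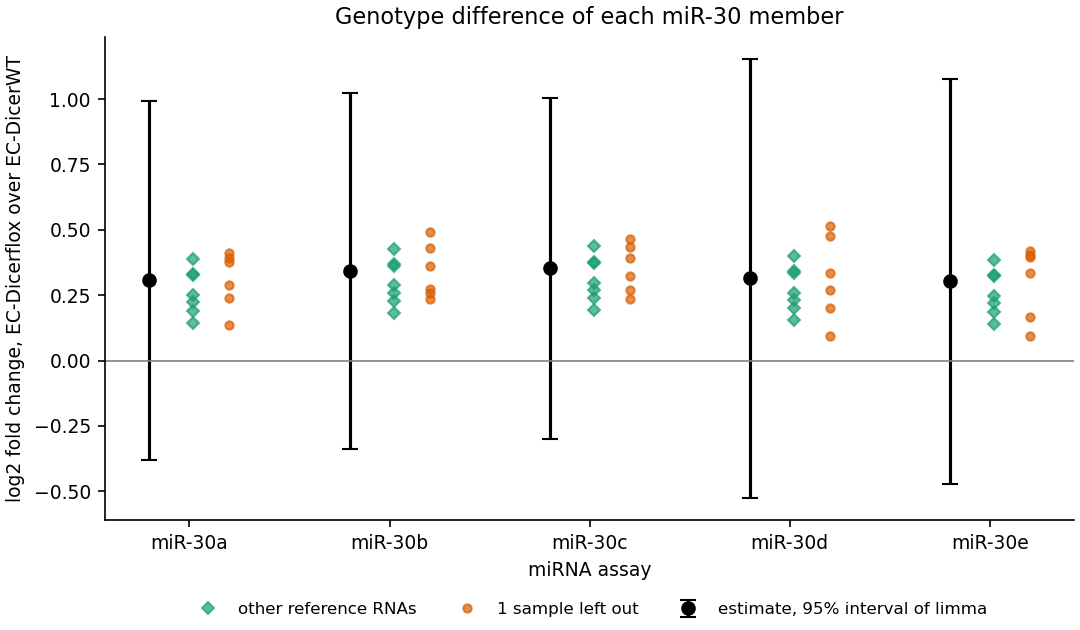
Log2 fold change (EC-Dicerflox over EC-DicerWT) of each member with its 95% interval (black), under 7 other references (green) and with each of the 6 samples left out in turn (orange). All points lie above 0 and all intervals span 0.

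Within the pairs of equal replicate number, the differences of the 5 members were from -0.14 to 0.05 in number 1, from 0.23 to 0.51 in number 2 and from 0.43 to 0.75 in number 3, on the log2 scale. The lowest of number 1 was miR-30b, and the highest of number 3 was miR-30c. MiR-30a, miR-30c, miR-30d and miR-30e were higher in the EC-Dicerflox sample of 3 of 3 pairs, with differences of 0.00075, 0.05, 0.0078 and 0.05 in number 1. Matched in this way, the difference came from numbers 2 and 3 and was close to 0 in number 1. Neither labels nor methods say what a number shares. Over 350 miRNAs, deviations from the group means in EC-Dicerflox replicate 1 correlated at 0.150 with EC-DicerWT replicate 1 and at 0.285 with EC-DicerWT replicate 2.

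Because whole aortas were measured, fewer cells of a type and less miRNA per cell cannot be told apart. The EC markers miR-126-3p and miR-126-5p, the 2 strands of a hairpin in the EC gene Egfl7, were both detected in all samples. Their summed level ranged from 1.05 to 1.72 in EC-Dicerflox and from 0.84 to 0.91 in EC-DicerWT mice on the log2 scale. The groups did not overlap for this sum (exact permutation p = 0.1, the smallest possible) nor for either strand. The groups were likewise apart for 10.4% of the 461 miRNAs tested. Neither strand passed the test, with a log2 fold change of 0.41 for miR-126-3p and 0.85 for miR-126-5p (adjusted p-value of limma 0.923 for both). The smooth muscle markers miR-143 and miR-145 were both detected, and their summed level ranged from 4.30 to 5.56 against 4.23 to 4.83. For the leukocyte list, with 4 of 4 markers detected in all samples, the ranges were -0.89 to -0.23 and -0.54 to 0.32. The exact permutation p of this sum was 0.6. Of that list, 3 markers were lower in EC-Dicerflox mice and 1, miR-223, was higher (log2 fold change 0.17). MiR-142-5p was the 1 marker with an unadjusted p-value of limma under 0.05 (0.00989, log2 fold change -0.996, adjusted p-value 0.923). Over all 461 miRNAs tested, 3.04% had such a p-value. For red blood cells, with 2 of 3 markers listed and both detected, they were -2.21 to -1.23 and -2.42 to -0.70. For striated muscle, with 3 of 6 listed markers detected in all samples and miR-208b and miR-499 at 40 throughout, they were 0.04 to 0.46 and 0.02 to 0.16. For epithelium, with 5 of 5 detected, they were -7.69 to -6.68 and -6.89 to -5.95. The part of these cell types in the values of the miR-30 family was not tested.

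The differences between members need no control RNA, and in the unpaired comparison they did not shift with genotype beyond the spread. Over the 10 pairs of members, the CT of one minus that of the other differed between the genotypes by 0.004 to 0.05 cycles in size. The exact two-sided permutation p ranged from 0.5 to 1, and the p adjusted over the 10 pairs was 1 throughout. With 3 against 3 samples the smallest possible p is 0.1, so that this test could not have called any pair at 0.05. The groups overlapped for every pair. For miR-30c minus miR-30b, the difference between the genotypes was -0.01 cycles with a 95% interval of -0.23 to 0.20, computed from the pooled spread of the groups. For miR-30d minus miR-30c it was 0.04 with the widest interval, -0.78 to 0.86. The data thus bound a shift among miR-30a, miR-30b and miR-30c more tightly than a shift that involves miR-30d.

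Within the a/c-2 locus, miR-30c was 1.87, 1.86 and 2.06 cycles earlier than miR-30a in EC-Dicerflox and 1.82, 1.83 and 1.99 cycles earlier in EC-DicerWT mice. The difference between the genotypes was 0.05 cycles (exact permutation p = 0.5, 3 against 3 samples). Within equal replicate numbers, miR-30c minus miR-30a was lower in EC-Dicerflox mice in 3 of 3 numbers, with differences of -0.050, -0.027 and -0.063 cycles and a mean of -0.047 ± 0.018 (SD, n = 3). The exact sign-flip test gave p = 0.25, the smallest that 3 pairs allow. This was the 1 pair of members of the 10 with the same sign in all numbers. Random signs would agree in all 3 numbers with a probability of 0.25, so that 1 of 10 is not more than that share. Without EC-Dicerflox replicate 3 the unpaired difference between the genotypes turned to 0.016 cycles. Within the c-1/e locus, miR-30e was later than miR-30c by 3.50, 3.45 and 4.03 cycles against 3.50, 3.54 and 3.79. In both loci the samples numbered 3 had the widest gap, and the other 4 samples lay close together. Within the b/d locus, miR-30d was later than miR-30b by 3.21, 3.50 and 4.08 cycles against 3.35, 3.56 and 3.79. Here the gap varied among the other samples as well.

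Over all 6 samples, members of the same locus were not uniformly the closest in their pattern, and this changed without the samples numbered 3. Over the 6 samples the SD of the CT difference was 0.0951 cycles for miR-30a and miR-30c, 0.229 for miR-30c and miR-30e and 0.315 for miR-30b and miR-30d. For the 7 pairs of different loci it ranged from 0.0850 (miR-30b and miR-30c) to 0.324 (miR-30c and miR-30d), with a median of 0.155. The pair of the b/d locus thus had the second largest SD of the 10, and the smallest belonged to members of different loci. These SDs describe assays that share the RNA and the card within each sample, and were not tested. With both samples numbered 3 left out, they were 0.0232 for miR-30a and miR-30c, 0.0353 for miR-30c and miR-30e and 0.16 for miR-30b and miR-30d. MiR-30a and miR-30c then had the smallest SD and miR-30c and miR-30e the second smallest, and miR-30b and miR-30c were at 0.109. Of the pairs with miR-30d, that of the b/d locus was then the closest. The others were at 0.185 with miR-30e, 0.198 with miR-30c and 0.202 with miR-30a. Every pair of different loci without miR-30d was closer than the pair of the b/d locus. MiR-30a and miR-30e were at 0.0501, miR-30b and miR-30e at 0.0886, and miR-30a and miR-30b at 0.104. The order of the SDs by locus thus depended on the samples numbered 3. These samples had the widest gaps in the a/c-2 and c-1/e loci and were left out after the values were seen. The fall of the SDs of these loci was therefore set in part by that choice.

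**Figure D4:**
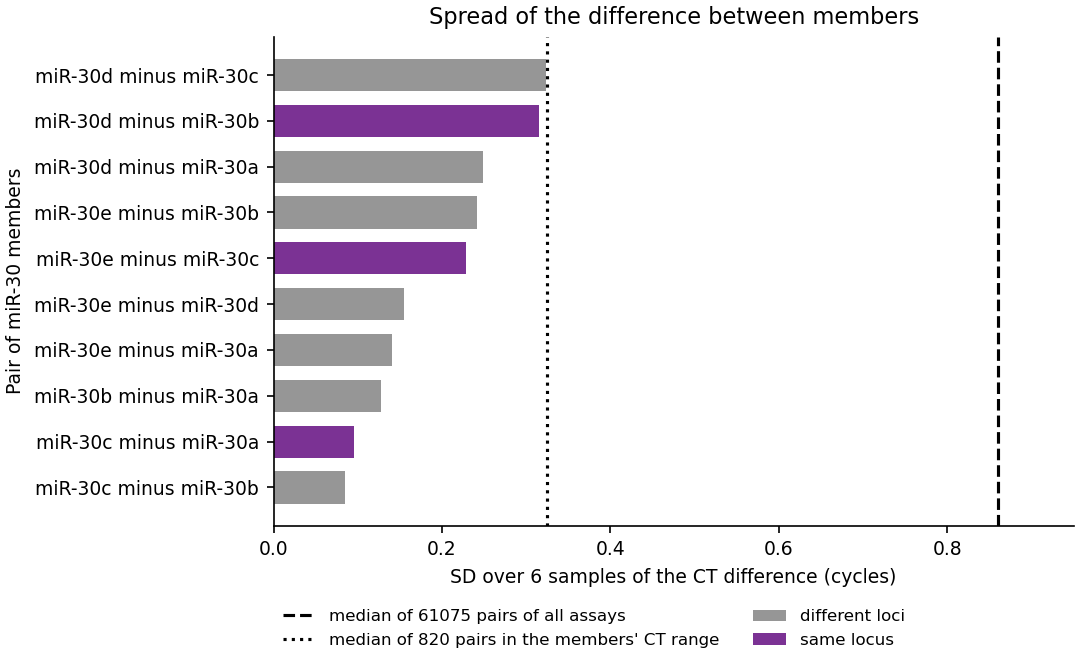
SD over 6 samples (cycles) of the CT difference for the 10 pairs of members, with pairs of the same locus in purple and of different loci in grey. Vertical lines mark the median SD over 61075 pairs of all assays (0.860) and over 820 pairs of first-card assays in the CT range of the members (0.324), and the pair of the b/d locus is the second widest of the family.

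The SD of each pair of members was also set beside those of other assays. Over the 61075 pairs among the 350 assays detected in all samples, the median SD was 0.860 cycles, and from 0.0327% to 7.89% of these pairs had a smaller SD than the member pairs. The comparison was repeated after the values were seen with the 41 assays of the same card whose mean CT lay between those of the members, which include the members themselves. Their 820 pairs had a median SD of 0.324. Of these, 0.244% had a smaller SD than miR-30b and miR-30c, 0.488% than miR-30a and miR-30c, 24.1% than miR-30c and miR-30e, 47.8% than miR-30b and miR-30d and 49.9% than miR-30c and miR-30d. For the other pairs with miR-30d, the share was 29.8% with miR-30a and 5.85% with miR-30e. The SD of miR-30d against miR-30b and miR-30c was thus near the middle of assays of like signal, and that against miR-30e was not. With the SD within the groups, 55.4% of these pairs were below miR-30b and miR-30d and 57.1% below miR-30c and miR-30d, so that both then lay above the median.

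Each member was also compared with the mean CT of the other 4. The SD over the samples was 0.0715 cycles for miR-30a, 0.141 for miR-30e, 0.161 for miR-30c, 0.168 for miR-30b and 0.250 for miR-30d. Of the 344 assays detected in all samples that are neither a member nor miR-30b*, 0 followed the other members more closely than miR-30a did, and 7, 14, 19 and 48 did for miR-30e, miR-30c, miR-30b and miR-30d.

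The 5 assays outside the family with the pattern most like it, by the SD over 6 samples of their CT minus the mean CT of the members, were miR-365 (0.100), miR-328 (0.103), miR-23b (0.107), miR-27a (0.122) and let-7d (0.129). All are on the same card as the members. Their log2 fold changes were 0.20, 0.41, 0.37, 0.18 and 0.23, each with an adjusted p-value of limma of 0.923. SnoRNA202, a control RNA, had an SD of 0.159 to the family mean, which would place it at 14 of 344, whereas U6 had 0.505 and would be at 166. The family thus ran closer to snoRNA202 than to U6 over these samples.

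Of the star strands, only miR-30b* is listed, on the other card. Its CT was 28.9, 29.0 and 31.9 in EC-Dicerflox and 29.5, 29.3 and 32.1 in EC-DicerWT mice. It appeared 12.1 ± 0.90 cycles (SD, n = 6) after miR-30b. Replicate 3 was again the latest in both groups, and the other 4 samples lay between 28.9 and 29.5. The log2 fold change was 0.52 ± 0.74 (SE), with an unadjusted p = 0.507 by limma. Its direction turned with 1 sample, to -0.11 without EC-DicerWT replicate 3, and it was 1.01 without EC-Dicerflox replicate 3. The gap between star and guide was 11.99 ± 1.06 cycles in EC-Dicerflox and 12.2 ± 0.94 in EC-DicerWT mice (SD, n = 3 each), which differed by less than the spread (exact permutation p = 0.7).

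MiR-384-5p, known from brain, has the same seed but a different 3′ part and is encoded by Mir384 on chromosome X. Its CT was 28.9, 28.5 and 31.9 against 29.5, 28.6 and 31.8, that is 10.4 ± 0.90 cycles after the mean of the members (SD, n = 6). The log2 fold change was 0.34 ± 0.84 (SE, unadjusted p = 0.700 by limma), and all 3 EC-Dicerflox samples lay among the EC-DicerWT values. Its direction also turned, to -0.32 without EC-DicerWT replicate 3 and -0.03 without EC-Dicerflox replicate 2, and it was 0.94 without EC-Dicerflox replicate 3. The SEs of miR-30b* and miR-384-5p exceeded the estimates of all 5 members in this fit. With the replicate number as a block they were 0.30 and 0.28, with unadjusted p-values of limma of 0.165 and 0.300, so that much of the spread of these late signals lay between the replicate numbers.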

How the data were processed

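MiRNAs were measured in the aorta of 3 EC-Dicerflox and 3 EC-DicerWT samples. Per the methods, reverse transcription and pre-amplification with rodent Megaplex primer pools preceded PCR on microfluidic TaqMan cards. The authors deposited CT values, not normalized, with 40 where no signal was seen; threshold and baseline settings are not given in the sources used here. Columns carry the names of the samples, and 0 sample columns went unused. Labels call the mice male and the paper female; sex entered no result. Cards were told apart by the length of the assay number.

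The groups were compared with limma 3.58.1 in R 4.3.3 on minus delta CT to U6 and snoRNA135 (4 wells), with Benjamini-Hochberg adjustment over the 461 miRNAs that reached a CT below 40 in any sample. Exact permutation tests served for single values (scipy 1.17.1, Python 3.11.15). The fit was tested on simulated data. The members, marker lists and tests were chosen with earlier results of these data known. The named miRNAs are the members, their star strand and seed mate, the 5 assays most like the family, control RNAs and markers. Of the 596 assays, 406 matched a RefSeq mature miRNA by name. The number of arrays limits the precision.

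Samples of equal number deviated together over 350 miRNAs, with correlations of 0.150, 0.224 and 0.431 for numbers 1, 2 and 3, and were taken as pairs in an alternative fit; neither labels nor methods say what a number shares. Replicates 1 and 2 crosswise reached 0.285 and 0.117. Alternatives were other control RNAs or references, other treatment of late and undetermined wells, other filters, an ordinary linear model, trend and robust moderation, the replicate block and leaving out each sample. Added after the values were seen were the fits without both samples numbered 3 and the pairs of assays in the CT range of the members.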

Additional observations from a re-analysis of the deposited data

How the results depend on the processing

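The log2 fold change of each member kept its sign and an unadjusted p-value above 0.05 in 14 alternatives, in the 6 fits without 1 sample and without both samples numbered 3 (105 values from 0.09 to 0.51; smallest p-value 0.103, for miR-30c in the ordinary linear model). Leaving out 1 sample, the ranges were 0.13 to 0.41 for miR-30a and for the median of the members, 0.23 to 0.49 for miR-30b, 0.24 to 0.47 for miR-30c, 0.10 to 0.51 for miR-30d and 0.09 to 0.42 for miR-30e. With the replicate block, which uses the pairing by number, the p-value of limma was 0.290 for miR-30c and 0.344 for miR-30a, 15 miRNAs had an unadjusted p under 0.05, and no call of a member changed. That count was 14 in the reported fit, 9 with U6 alone, 24 with the ordinary linear model and 12 to 22 without 1 sample, with 22 without EC-Dicerflox replicate 1. After adjustment limma called 2 miRNAs without EC-Dicerflox replicate 1 and 1 without EC-Dicerflox replicate 3, none of them a member. The estimate of miR-30b* turned to -0.11 without EC-DicerWT replicate 3 (range -0.11 to 1.01). That of miR-384-5p turned to -0.32 without that sample and -0.03 without EC-Dicerflox replicate 2 (range -0.32 to 0.94). The cause was not tested.

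The genotype differences between members lay around 0 and changed sign in all 10 pairs when 1 sample was left out. Their ranges in cycles were -0.10 to 0.048 (b minus a), -0.10 to 0.016 (c minus a), -0.19 to 0.12 (d minus a), -0.12 to 0.075 (e minus a), -0.070 to 0.041 (c minus b), -0.22 to 0.22 (d minus b), -0.15 to 0.16 (e minus b), -0.20 to 0.20 (d minus c), -0.13 to 0.16 (e minus c) and -0.082 to 0.12 (e minus d). Paired sign-flip tests gave exact p-values of 0.25 (the smallest possible) to 1. The SD of the CT difference was 0.081 to 0.156 for e minus a and 0.137 to 0.250 for e minus c when 1 sample was left out, lowest without EC-Dicerflox replicate 3. Without both samples numbered 3 it fell to 0.0232 (c minus a), 0.0501 (e minus a), 0.16 (d minus b), 0.0886 (e minus b), 0.198 (d minus c) and 0.0353 (e minus c), and stayed within 1.5 times for the other 4 pairs. Centring on the group means moved no SD by more than leaving out 1 sample did.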
